A study of Mus musculus with 24 samples.

Results

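The comparison set Tet1-/- mouse embryonic stem cells (ESCs) against wild-type (WT) ESCs on day 6 (D6) of leukemia inhibitory factor (LIF) withdrawal. Its members were 6 of the 24 RNA-seq libraries of the series, 3 of Tet1-/- cells and 3 of WT cells, chosen by their genotype and day labels. Each library came from 1 clonal line: clones 2.1, 2.2 and 2.4 of Tet1-/- and clones O4.1, O4.2 and O4.13 of WT. All 6 lines go back to a 129/SVj ESC line (129 derived in the labels) and carry an IRES-eGFP cassette at Pou5f1 (the Oct4 gene), and the Tet1-/- clones were made in that reporter line by transient transfection of Cas9 with a guide to Tet1 and puromycin selection. The cells were plated at low density on gelatin with LIF, the medium was changed to one without LIF on the next day, and RNA was taken at D6. The other libraries were D6 cells of 3 further genotypes with 2 clones each, Tet2-/-, the double knockout of Tet1 and Tet2 (DKO) and the triple knockout of Tet1, Tet2 and Tet3 (TKO), and day 0 (D0) cells of all genotypes kept in LIF. The 6 further D6 libraries entered the fit of the spread between clones. A library is 1 culture of 1 clone, so the spread within a group holds differences between clones and between cultures, which cannot be told apart.

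TET proteins are dioxygenases that oxidize the methyl group of 5-methylcytosine, the first step of active DNA demethylation. TET1 is abundant in ESCs and binds many CpG-rich promoters. LIF keeps mouse ESCs self-renewing through the JAK and STAT3 pathway, and its removal lets them leave pluripotency towards all germ layers, with streak and mesoderm genes such as T and Mesp1 among the early ones. The question of the comparison was which transcripts differ between cells with and without intact Tet1 once LIF has been gone for 6 days.

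The guide cuts inside a coding exon of Tet1. Its target lies on the minus strand at chr10:62296296-62296315 of mm9, in exon 4 of 11 or 12 (exon 5 of 13 in another annotated transcript), at codon 1394 of 2007 or 2039. The window below is the reference at chr10:62296283-62296317, written 5′ to 3′ on the minus strand with the PAM in capitals, and it runs 3 bases past the end of the exon. The study lists 2 alleles in each of 3 Tet1-/- clones. They are printed with the deleted bases in capitals, to show what the genotype is at the DNA level.
Reference: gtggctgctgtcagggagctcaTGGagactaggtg
Clone 1 allele 1: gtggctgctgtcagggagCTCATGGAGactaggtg
Clone 1 allele 2: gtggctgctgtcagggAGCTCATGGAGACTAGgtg
Clone 2 allele 1: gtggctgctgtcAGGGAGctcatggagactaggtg
Clone 2 allele 2: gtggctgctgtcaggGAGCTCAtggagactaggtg
Clone 3 allele 1: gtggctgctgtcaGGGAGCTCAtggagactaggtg
Clone 3 allele 2: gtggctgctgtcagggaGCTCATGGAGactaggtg
The 6 deletions took out 6 to 16 bases. In each clone of the list 1 allele lost a multiple of 3 bases, which keeps the reading frame, and the other did not. The clone numbers of that list are not tied to the names 2.1, 2.2 and 2.4 in the labels, so no allele is assigned to a library here.

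Tet1 RNA was present in every Tet1-/- library. It stood at 87.9, 163 and 201 counts per 1000000 counts (CPM) in clones 2.1, 2.2 and 2.4 and at 121, 134 and 114 CPM in WT O4.1, O4.2 and O4.13. The Tet1-/- values spanned the WT values, and the log2 fold change of 0.29 (SE 0.453) did not pass the test (edgeR adjusted p = 0.8). Counts over a whole transcript do not read out deletions of this size, so they check neither the genotype nor the protein. The study describes the protein as lost by Western blot, a measurement that was not analysed here. Of the paralogs, Tet2 was close to WT, at 13.4, 14.3 and 14.0 against 13.7, 17.1 and 12.9 CPM. Tet3 was at 12.8, 17.6 and 14.1 against 20.5, 14.3 and 22.1 CPM. The Tet2 difference was -0.07 on the log2 scale (SE 0.223) and the Tet3 difference -0.36 (SE 0.181), and the groups overlapped in both. Values of single libraries are given below in this order of clones throughout. CPM are scaled by edgeR's TMM factors and not by transcript length, so they are compared between libraries and not between genes.

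The 6 libraries held 18400463 to 31426279 counts, and 3 counts, the limit that a count of 0 allows, came to between 0.0929 and 0.161 CPM on the same TMM scale. WT O4.2 stood apart from the other WT clones. Its genes of the naive pluripotency list had a median log2 difference of 1.21 from the other WT clones, and those of the primitive streak and early mesoderm list a median of -1.47. The Tet1-/- clones lay on different sides in the same lists: the summed level of the 17 streak and mesoderm genes was 982, 1749 and 455 CPM in the Tet1-/- clones against 1228, 494 and 1320 CPM in WT. In bulk RNA, fewer cells of a type and less RNA per cell cannot be told apart, here and in every list below.

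No gene passed the test between the genotypes in edgeR, where the spread between clones sets the error. Of 15435 tested genes, 0 were called higher and 0 lower in Tet1-/- clones at an adjusted p under 0.05 and over 2-fold in edgeR (quasi-likelihood test, Benjamini-Hochberg adjusted p; 0% of genes in each direction), and the smallest adjusted p was 0.318. At an unadjusted p under 0.05 there were 1949 genes (12.6%), of which 1026 (6.65%) were higher and 923 (5.98%) lower, and of these 235 and 162 also passed 2-fold. DESeq2 on the same 12 D6 libraries called 28 genes higher and 18 lower, on the 6 libraries alone 13 and 13, and limma voom with a weight per library 94 and 84. All 3 Tet1-/- clones lay above all 3 WT clones for 1285 genes (8.33%) and below them for 1174 (7.61%). In the account that follows a gene whose groups do not overlap is one of these 2459 (15.9%), and no gene is said to have changed in the 3 clones together.

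**Figure D1:**
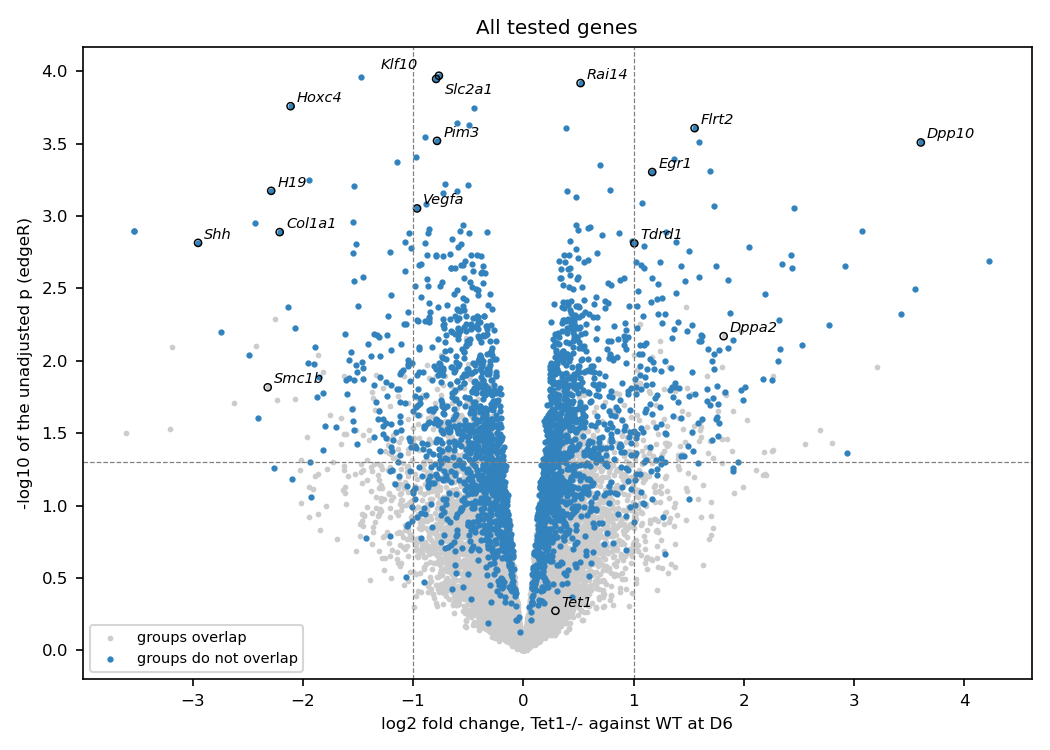
Each point is 1 of 15435 tested genes, with the log2 fold change of Tet1-/- against WT clones at D6 on the x axis and -log10 of the unadjusted edgeR p on the y axis. Blue points are genes whose 3 Tet1-/- and 3 WT libraries do not overlap in CPM, grey points the others, and dashed lines mark 2-fold and the unadjusted threshold of 0.05. Slc2a1, Klf10, Hoxc4 and Rai14 sit near the top although none passed the adjusted threshold, and Tet1 sits near the bottom.

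The gene of the main glucose transporter of many cells, Slc2a1, was among those with the smallest p-values, on the lower side in Tet1-/- clones. Cells import glucose through GLUT proteins and split it by glycolysis, and many of these genes, with Vegfa, are targets of the hypoxia-inducible factors. Slc2a1, which encodes the transporter GLUT1, was at 787, 889.9 and 713 CPM in the Tet1-/- clones and 1353, 1576 and 1204 CPM in WT. Every Tet1-/- clone was below every WT clone, with means of 797 ± 88.6 and 1378 ± 187 CPM (SD, n = 3 each). Its log2 fold change was -0.79 (SE 0.135), with an adjusted p of 0.318 in edgeR and 0.000581 in DESeq2. Slc2a3 (GLUT3) was at 2337, 1888 and 1972 against 3536, 3306 and 3208 CPM, a log2 fold change of -0.70 (SE 0.209), and its groups did not overlap either. Its unadjusted p of 0.00663 was less extreme, and DESeq2 gave it an adjusted p of 0.108.

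Vegfa, the vascular growth factor, was at 18.7, 23.3 and 14.1 CPM against 43.0, 36.0 and 30.4 CPM in WT, a log2 fold change of -0.96 (SE 0.213, DESeq2 adjusted p = 0.0117). Hk2, a hexokinase, was at 118, 108 and 99.9 against 148, 134 and 158 CPM. Pfkp, a phosphofructokinase, was at 54.3, 53.4 and 42.6 against 54.5, 103 and 66.8 CPM, so its groups were separated only by the small gap between clone 2.1 and WT O4.1. These 5 genes were the non-overlapping ones among the 19 tested members of the hypoxia and glycolysis list, all 5 below WT, beside 7.61% of all genes. At an unadjusted p under 0.05 there were 6 members lower (31.6%, beside 5.98% of all genes) and 0 higher, Aldoa (-0.51) and Gpi1 (-0.33) in place of Hk2, and Pkm2 was not tested. The median log2 fold change of the list was -0.22 (-0.40 without clone 2.2) beside -0.01 over all tested genes, with clone medians of -0.33, -0.20 and -0.45. Its summed level was 14876, 16940 and 14485 CPM in the Tet1-/- clones against 17453, 20912 and 17653 CPM in WT. Within the list the last steps of glycolysis were near WT, with a log2 fold change of -0.05 for Eno1, -0.07 for Pkm and 0.06 for Ldha, and Pdk1, a kinase that restrains pyruvate entry into mitochondria, was at 0.37. None of the members passed the adjusted threshold in edgeR.

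The promoters of the 5 non-overlapping genes of the list were read for the core of the element that hypoxia-inducible factors bind. That core reads ACGTG or GCGTG on its own strand (CACGT or CACGC on the other). Windows ran from 250 bases before to 50 after the annotated start. The 14 overlapping members were not read, so the windows were not compared with the rest of the list. In the table of RefSeq promoter sequences used here (GRCm38.p6) 4 of the 5 genes were matched, all but Slc2a3. The ACGTG form was in 19.6% of all 32851 windows, the GCGTG form in 32.4% and either in 43.8%. The Slc2a1 window at chr4:119108495-119108794 on the plus strand held 1 match to each form and the Hk2 window at chr6:82774405-82774704 on the minus strand held 2 of ACGTG and 0 of GCGTG. They are shown with the ACGTG form in capitals.
Slc2a1: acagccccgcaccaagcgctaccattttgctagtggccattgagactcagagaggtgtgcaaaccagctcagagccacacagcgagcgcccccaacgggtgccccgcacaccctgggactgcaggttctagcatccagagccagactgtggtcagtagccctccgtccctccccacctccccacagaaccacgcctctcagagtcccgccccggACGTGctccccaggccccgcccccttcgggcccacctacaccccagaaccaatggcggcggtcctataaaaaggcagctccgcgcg
Hk2: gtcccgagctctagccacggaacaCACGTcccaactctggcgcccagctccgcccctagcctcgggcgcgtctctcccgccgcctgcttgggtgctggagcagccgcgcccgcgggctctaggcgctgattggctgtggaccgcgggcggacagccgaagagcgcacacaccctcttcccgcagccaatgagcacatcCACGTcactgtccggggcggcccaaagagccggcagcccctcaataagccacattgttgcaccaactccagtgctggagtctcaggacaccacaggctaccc
The Pfkp window held 0 matches to ACGTG and 4 to GCGTG, and of 2 windows of Vegfa 1 held 1 match to each form and the other 0. A match is only a run of letters, and binding was not measured here.

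LIF signalling held a pair of non-overlapping genes. Pim1 and Pim3, kinases whose genes STAT3 activates, were below WT in every clone. Pim3 was at 62.0, 46.6 and 68.3 CPM against 88.0, 107 and 109.7 CPM in WT, with means of 59.0 ± 11.2 and 101 ± 11.8 CPM (SD, n = 3 each) and a log2 fold change of -0.78 (SE 0.151, DESeq2 adjusted p = 0.00462). Pim1 was at 88.5, 55.6 and 84.6 against 98.2, 119 and 112 CPM, a difference of -0.52 on the log2 scale. Clone 2.2 was the lowest library for both kinases. The LIF receptor gene Lifr was at 11.6, 14.2 and 10.8 against 17.3, 13.9 and 18.4 CPM and overlapped. Of the 12 tested members of the LIF receptor and STAT3 pathway list, 11 had a log2 fold change below 0 (91.7%, beside 50.8% of all genes). The 2 kinases were the non-overlapping ones below WT (16.7% beside 7.61%), and 3 members had an unadjusted p under 0.05, all lower (25% beside 5.98%). The median was -0.34, and -0.18 without clone 2.2, and the clone medians were -0.11, -0.29 and -0.37.

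Of the core pluripotency factors 9 of 10 overlapped between the genotypes, and 14 of 15 naive factors did. The non-overlapping member of each list was above WT (10% and 6.67%, beside 8.33% of all genes). At an unadjusted p under 0.05 there were 3 core factors higher (Dppa2, Dppa4 and Tdgf1; 30% beside 6.65% of all genes) and 0 lower. Pou5f1, the core factor Oct4 and the host of the reporter, was at 336, 271 and 472 CPM against 221, 287 and 231 CPM in WT, so that clones 2.1 and 2.4 were above all WT clones and clone 2.2 was within their range (log2 fold change 0.54, SE 0.249). Nanog was at 335, 314 and 374 against 220.3, 511.7 and 303 CPM, with all Tet1-/- clones between the lowest and the highest WT clone. Dppa2, a regulator of bivalent promoters, was at 29.4, 9.19 and 51.6 against 5.27, 14.9 and 5.37 CPM. Its log2 fold change of 1.82 (SE 0.546) had an unadjusted p of 0.00677 in edgeR, carried by clones 2.1 and 2.4. Of the 10 core factors only Tdgf1, a Nodal co-receptor, did not overlap: 516, 559 and 450.4 against 375, 425 and 325 CPM, a log2 fold change of 0.44 (SE 0.169). The naive factors Esrrb (118, 45.6 and 147 against 56.5, 216 and 68.8 CPM) and Klf4 (33.5, 16.2 and 26.1 against 17.9, 58.8 and 27.2 CPM) were highest in WT O4.2 and lowest in clone 2.2. The median of the 15 naive factors was 0.33 in clone 2.1, -0.69 in clone 2.2 and 0.43 in clone 2.4, and 1 of them, Gbx2, was non-overlapping and above WT. Removing WT O4.2 moved the median of the core list from 0.26 to 0.72, whereas it fell to 0.067 without clone 2.4 and 0.13 without WT O4.13.

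Nodal, the TGF-beta family ligand that patterns the epiblast and streak, varied little among the Tet1-/- clones. It was at 113, 111 and 115 CPM against 89.2, 56.9 and 87.0 CPM in WT, means of 113 ± 2.12 and 77.7 ± 18.04 CPM (SD, n = 3 each). The log2 fold change was 0.54 (SE 0.200), with an unadjusted p of 0.0211 and an adjusted p of 0.353 in edgeR. With Tdgf1 above, the ligand and its co-receptor were above WT in every clone. Acvr1b, a type I receptor of the pathway, was below WT in every clone at 41.8, 53.5 and 34.4 against 53.7, 53.9 and 55.9 CPM, although clone 2.2 was barely under the lowest WT value. The targets and antagonists Lefty1 (24.2, 9.80 and 53.1 against 32.0, 43.9 and 19.2 CPM) and Lefty2 (147, 66.6 and 189 against 94.0, 98.8 and 69.3 CPM) spread widely and overlapped. The 12 members of the Nodal and Lefty list had a median of -0.06, and 2 were non-overlapping above (16.7%, beside 8.33% of all genes) and 1 below WT (8.33%, beside 7.61%). Among 13 formative and primed epiblast factors only Sall2, a zinc finger factor, did not overlap, at 95.1, 123 and 131 against 75.4, 89.1 and 66.6 CPM (log2 fold change 0.60, SE 0.169).

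Streak and mesoderm genes separated the Tet1-/- clones from each other and not the genotypes. T, the streak marker Brachyury, was at 165, 198 and 71.3 CPM against 147, 82.8 and 173 CPM in WT. Mesp1, a master factor of cardiac mesoderm, was at 20.4, 85.8 and 4.24 against 26.5, 9.65 and 36.7 CPM. Kdr, the receptor of hemogenic and cardiac progenitors, was at 50.8, 177 and 13.0 against 86.7, 21.8 and 125 CPM. In each of these genes clone 2.2 was the highest and clone 2.4 the lowest of the 6 libraries. Clone 2.2 was above all WT clones in 11 of the 17 list members, where it was above them in 24.5% of all genes. Clone 2.4 was below all WT clones in 15 of the 17, beside 34.4% of all genes. The clone medians were -0.25, 0.69 and -1.96. The median of the joint fit was -0.01, and it moved to -0.80 without clone 2.2, 0.40 without clone 2.4 and -0.40 without WT O4.2. Of the 17 members 0 were non-overlapping (beside 15.9% of all genes) and 0 had an unadjusted p under 0.05 (beside 12.6%).

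Clone 2.4 was low for the derivatives of that tissue too. Its median was -2.01 over the 17 tested cardiac genes, of which 12 were below all WT clones, and -2.01 over 11 endoderm factors, of which 9 were. Hand1 was at 47.9, 78.1 and 8.91 CPM against 132, 41.0 and 232 CPM, and Gata6 at 30.3, 42.4 and 6.51 against 63.2, 17.6 and 49.4 CPM. Both are transcription factors, of heart and extra-embryonic mesoderm and of heart and endoderm, and in both WT O4.2 was the lowest WT library. Over the 3 clones, all 11 endoderm factors had a log2 fold change below 0 (median -0.64), and 2 had an unadjusted p under 0.05 (18.2% beside 5.98% of all genes). The median moved to -1.19 without clone 2.2, -1.002 without WT O4.2 and -0.34 without WT O4.1, and WT O4.2 itself was at -1.67 from the other WT clones. Only the pioneer factor Foxa1 did not overlap (2.66, 2.04 and 1.97 against 11.6, 2.72 and 4.09 CPM), 9.09% of the list beside 7.61% of all genes. Among cardiac genes Myl4 (0.774, 1.44 and 0.334 against 2.47, 1.67 and 3.09 CPM) and Myl7, both atrial light chains, were non-overlapping and below, and Ttn, the giant sarcomere protein, was non-overlapping and above (5.54, 2.00 and 5.74 against 1.34, 1.56 and 1.44 CPM). These were 11.8% and 5.88% of the cardiac list, beside 7.61% and 8.33% of all genes. Gata5 was not tested. The 12 tested trophectoderm genes had a median of -0.72 and 11 log2 fold changes below 0, with 8 below all WT clones in clone 2.2 (23.2% of all genes), 9 in clone 2.4 (34.4%) and 0 in clone 2.1 (24.1%). None of them was non-overlapping over the 3 clones.

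**Figure D2:**
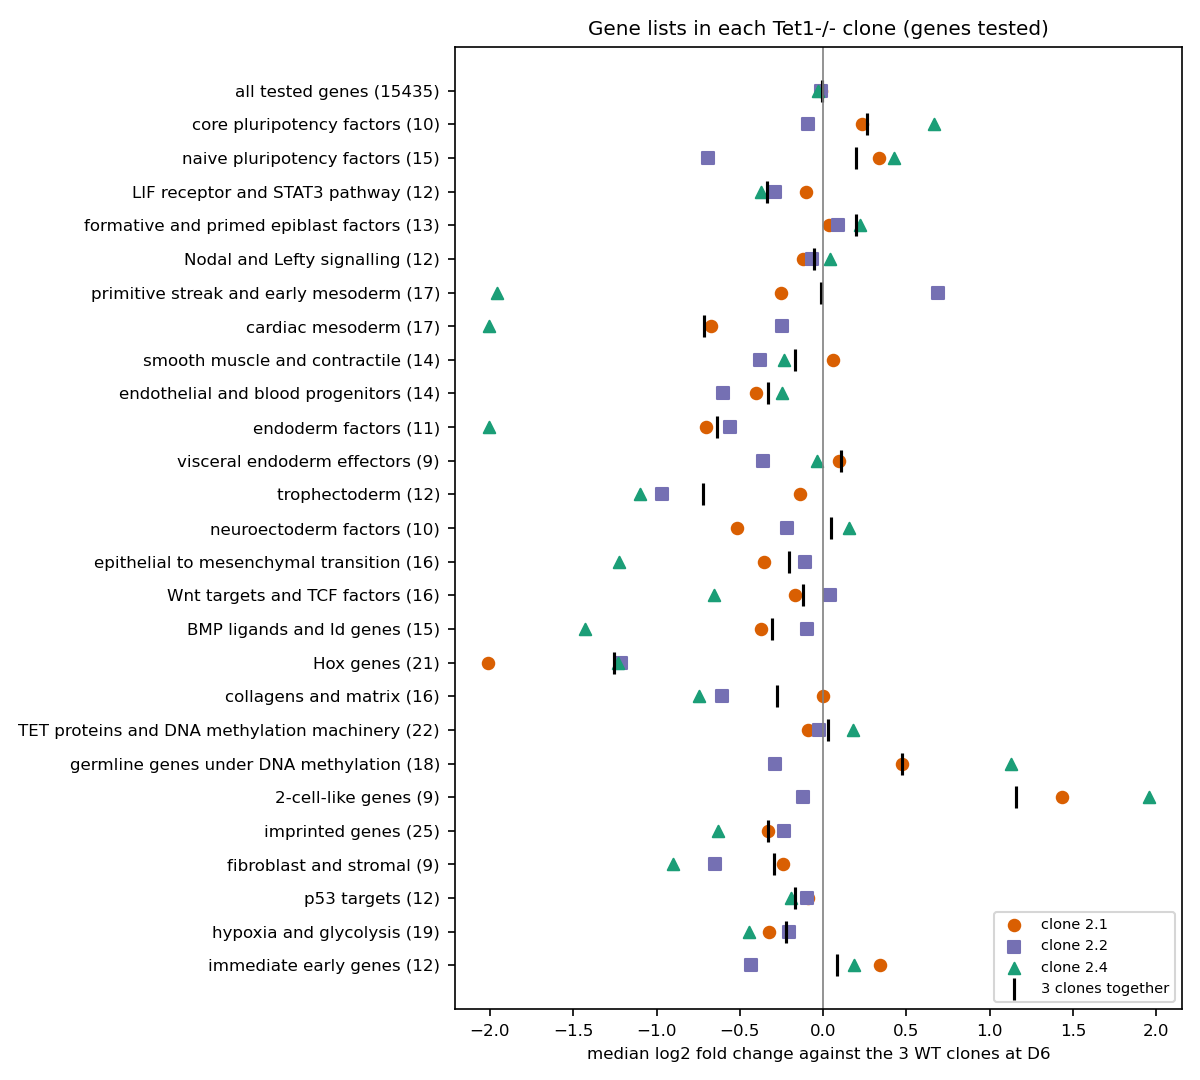
Each row is 1 gene list with the number of tested genes, and the x axis is the median log2 fold change over its genes against the 3 WT clones. Coloured points are the 3 Tet1-/- clones, each fitted alone, and the black bar is the fit of the 3 together. In the primitive streak and early mesoderm list clone 2.2 is at 0.69 and clone 2.4 at -1.96, whereas the 3 clones lie close together for p53 targets and hypoxia and glycolysis.

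The other lineage lists held 0 to 3 non-overlapping genes each, beside 8.33% of all genes above and 7.61% below WT. They numbered 3 of 14 (21.4%) for smooth muscle, all below WT, namely the co-activator Myocd (0.991, 0.983 and 0.334 against 2.53, 1.05 and 2.35 CPM), Lmod1 and Smtn. There were 2 of 9 (22.2%) visceral endoderm genes, both below, Apoe and Lamb1. The lipid carrier Apoe was at 244, 190.4 and 262 against 309, 318 and 331 CPM (log2 fold change -0.46, SE 0.116). Over the 9 genes 6 log2 fold changes were above 0 and 3 below, with a median of 0.10. That median was -0.18 without clone 2.4 and -0.10 without WT O4.2. Afp and Ttr, which define visceral endoderm, were not tested because of low counts. For 14 endothelial and blood, 10 neuroectoderm, 16 epithelial to mesenchymal transition and 15 BMP and Id genes the number was 0, and for 16 Wnt genes 2 (12.5%), both below (Rnf43 and Tcf7l1). Of 12 p53 targets 1 was above (8.33%) and 2 below (16.7%), and of 9 fibroblast and stromal genes only Pdgfrb (11.1%), below.

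Hox genes, which set position along the body axis and come up as mesoderm forms, were at 7.04 CPM or less in every library. Of 21 tested members 8 were non-overlapping and below (38.1%, beside 7.61% of all genes), 5 had an unadjusted p under 0.05 (23.8% beside 5.98%) and 13 overlapped. The log2 fold change was below 0 in 19, and 7 more Hox genes of the list were not tested. WT O4.2 was itself low, with a median of -1.27 against the other WT clones. The clone medians were -2.01, -1.21 and -1.23 and that of the joint fit was -1.26. Hoxc4 had the smallest p, at 0.248, 0.189 and 0.501 CPM against 1.61, 1.25 and 1.27 CPM in WT, a log2 fold change of -2.11 (SE 0.380, DESeq2 adjusted p = 0.0162). Hoxb4 was at 0.341, 0.567 and 0.100 against 1.61, 0.623 and 1.41 CPM. The summed level of the list did not separate the groups: it was 8.36, 24.5 and 9.61 CPM in Tet1-/- clones and 27.1, 10.5 and 31.2 CPM in WT, with clone 2.2 above WT O4.2.

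Col1a1 and H19 were among the genes with the largest decreases. Col1a1, the main fibrillar collagen chain, was at 42.8, 37.4 and 18.8 CPM against 126, 57.2 and 274 CPM in WT, a log2 fold change of -2.21 (SE 0.515). H19, the imprinted non-coding RNA beside Igf2, was at 26.8, 16.2 and 9.58 against 61.0, 53.8 and 142 CPM, with means of 17.5 ± 8.68 and 85.5 ± 48.8 CPM (SD, n = 3 each) and a log2 fold change of -2.29 (SE 0.487, DESeq2 adjusted p = 0.0234). In both genes the WT clones themselves spread widely, WT O4.13 being the highest. Igf2, the growth factor gene that shares its control region with H19, was at 269, 373 and 117 against 828, 265 and 688 CPM and overlapped through WT O4.2. Of the 25 tested imprinted genes 4 (16%, beside 7.61% of all genes) were non-overlapping below (H19, Igf2r, Sgce and Zrsr1) and 1 (4%, beside 8.33%) above (Magel2), with a list median of -0.33 that moved to -0.52 without clone 2.2 or WT O4.2 and to -0.19 without WT O4.13. Of 16 collagens and matrix genes 3 (18.8%, beside 7.61%) were non-overlapping, all below: Col1a1, Lamb1 and Lamc1. Shh, the hedgehog morphogen, had the lowest log2 fold change of the non-overlapping genes named by size, -2.95 (SE 0.682), from 0.0929, 0.151 and 0.267 against 2.74, 0.584 and 0.805 CPM, of which clone 2.1 had 3 counts.

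**Figure D3:**
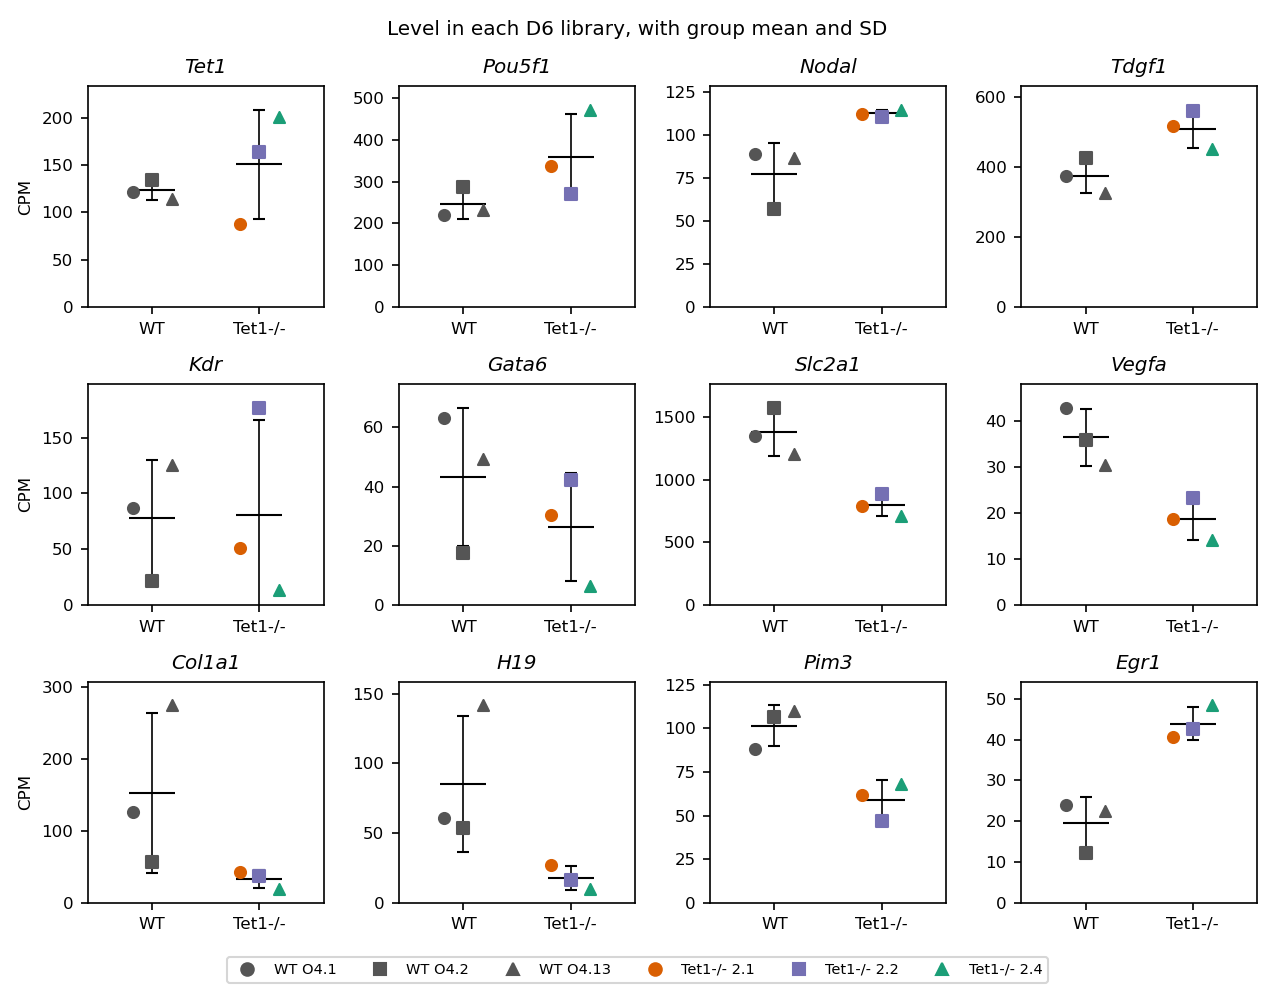
CPM of 12 genes in each of the 6 libraries, with WT clones in grey and Tet1-/- clones in colour. The horizontal line is the mean and the bar the SD of 3 libraries, and for Kdr the lower bar of Tet1-/- ends at 0 because it would run below. Nodal, Tdgf1 and Egr1 lie above WT and Slc2a1, Vegfa, Col1a1, H19 and Pim3 below in every Tet1-/- clone, whereas Tet1, Pou5f1, Kdr and Gata6 overlap.

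The DNA methylation machinery itself was mostly near WT. Over 22 genes the median was 0.03. Dnmt1 and Uhrf1, which copy methylation to the new strand, were at 0.04 and 0.08 on the log2 scale, and the de novo enzymes Dnmt3a and Dnmt3b at 0.16 and 0.20. Dnmt3l, their cofactor in ESCs, was at 118, 45.9 and 201 CPM against 49.5, 67.6 and 61.1 CPM, so clones 2.1 and 2.4 were above WT and clone 2.2 below. In clone 2.4 alone the gene was called higher, by 1.75 on the log2 scale (SE 0.218, adjusted p = 0.0437), a call that was lost without WT O4.1, without WT O4.13 and on the 6 libraries alone. Apex1, a base excision repair nuclease, was the 1 member non-overlapping and above (4.55% of the list, beside 8.33% of all genes), at 207, 183 and 236 against 167, 141 and 168 CPM. Gadd45b, Idh2 and Uhrf2 were non-overlapping and below (13.6%, beside 7.61%), with Gadd45b, a stress gene linked to demethylation, at 39.4, 24.02 and 21.9 against 63.9, 41.1 and 50.5 CPM.

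Germline genes, whose promoters DNA methylation silences in most somatic cells, had positive medians in clones 2.1 and 2.4 and a negative one in clone 2.2. The median of the joint fit was 0.48, and it was 0.77 without clone 2.2, 0.15 without clone 2.4 and 1.13 without WT O4.2. Of 18 tested members 5 were higher (27.8%, beside 6.65% of all genes) and 2 lower (11.1%, beside 5.98%) at an unadjusted p under 0.05. Tdrd1, a piRNA pathway protein, was at 14.1, 10.1 and 20.8 CPM against 7.42, 8.80 and 6.17 CPM in WT, a log2 fold change of 1.01 (SE 0.241, DESeq2 adjusted p = 0.023), and its groups did not overlap. In clone 2.4 it was called higher, by 1.48 on the log2 scale (SE 0.211, adjusted p = 0.0441), and this call was lost in the same fits as that of Dnmt3l. Ddx4, the VASA helicase, was at 37.4, 15.8 and 42.1 against 15.4, 22.9 and 13.9 CPM and overlapped. Stag3, a meiotic cohesin, went the other way at 7.84, 5.45 and 6.84 against 9.30, 15.2 and 11.6 CPM. Of 18 tested members 14 were above all WT clones in clone 2.4, beside 32.2% of all genes, 7 in clone 2.1 (25.3%) and 1 in clone 2.2 (24.5%), and the clone medians were 0.47, -0.29 and 1.13. Here too WT O4.2 stood apart, with a median of 1.25 against the other WT clones. Smc1b, another meiotic cohesin, was at 25.7 CPM in WT O4.2 and between 1.27 and 5.74 CPM in the other 5 libraries.

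Immediate early genes, which respond to growth factors and stress within minutes, went both ways. Egr1 was at 40.6, 42.6 and 48.4 CPM against 23.9, 12.2 and 22.5 CPM in WT, with means of 43.9 ± 4.05 and 19.5 ± 6.36 CPM (SD, n = 3 each) and a log2 fold change of 1.17 (SE 0.240, DESeq2 adjusted p = 0.0032). Fos was at 7.53, 6.28 and 4.41 against 10.1, 8.41 and 10.3 CPM, and Fosb at 0.465, 0.340 and 0.634 against 2.96, 1.63 and 1.07 CPM, so these AP-1 subunits were below WT in every clone while Egr1 and Egr2 were above (16.7% of the list each way, beside 7.61% and 8.33% of all genes). The other 8 of the 12 genes overlapped.

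Outside the lists, the named genes were those with the largest fold changes among 1249 non-overlapping genes with an unadjusted p under 0.05 and a mean of at least 1 CPM in a group, of which 649 were higher and 600 lower, and those with the smallest p in DESeq2. Txnip, an arrestin that restrains glucose uptake, was at 111, 173 and 34.4 CPM against 310.1, 443 and 432 CPM (log2 fold change -1.90, SE 0.616). Gm15441, which overlaps Txnip on the opposite strand, showed the same pattern (15.5, 24.1 and 4.51 against 47.4, 62.4 and 60.2 CPM), and since strand-specific counting is not stated the reads of this pair cannot be told apart. Hif3a, a hypoxia-inducible factor subunit that is not in the list above, was at 20.8, 32.9 and 17.3 against 48.5, 57.4 and 43.6 CPM (-1.07, SE 0.256). Ndufa4l2, a hypoxia-induced mitochondrial protein, was at 3.62, 2.91 and 1.47 against 5.97, 10.5 and 6.74 CPM (-1.54, SE 0.325), and the vasodilator peptide gene Adm at 1.77, 1.10 and 1.40 against 2.90, 3.54 and 3.05 CPM (-1.15, SE 0.231). DESeq2 gave adjusted p-values of 0.023, 0.0032 and 0.00876 for Hif3a, Ndufa4l2 and Adm, and none of the 3 passed the edgeR threshold. Among the genes that DESeq2 called lower the smallest p was that of Hmha1, the gene of a minor histocompatibility antigen, at 1.83, 1.59 and 1.07 against 3.82, 4.09 and 4.53 CPM (-1.47, SE 0.250, DESeq2 adjusted p = 0.000323). Its adjusted p in edgeR was 0.318.

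The genes with the smallest edgeR p-values were picked after their values were seen. Klf10, a TGF-beta-inducible zinc finger factor, was at 41.7, 39.7 and 35.1 CPM against 66.4, 62.9 and 68.6 CPM (log2 fold change -0.77, SE 0.130), and Rai14, an actin-associated protein, at 193, 194 and 222 against 139.7, 140.1 and 145 CPM (0.52, SE 0.0894). In these genes both groups were tight, yet the adjusted p stayed at 0.318 in edgeR. Among the higher genes Flrt2, an axon guidance membrane protein, was at 4.52, 5.48 and 4.41 against 1.72, 1.40 and 1.78 CPM (1.55, SE 0.292, DESeq2 adjusted p = 0.00053), and its 3 clones lay close together. Shisa6, Thbs4 and Lipo1, the other DESeq2 calls named by p on this side, had log2 fold changes of 1.59, 1.36 and 1.08. Many of the genes with the largest increases did not: Zfp936, a zinc finger protein, was at 18.9, 6.28 and 45.2 against 5.86, 5.14 and 3.19 CPM, Slc27a2, a fatty acid transporter, at 15.7, 7.64 and 32.8 against 5.21, 6.73 and 3.59 CPM, and Enox1 at 11.7, 3.82 and 21.7 against 3.12, 3.78 and 3.39 CPM. In these 3 clone 2.4 was the highest and clone 2.2 close to WT. The remaining largest increases were Btla, Mrc1, Ccl20, Rasgrf2, Atp8b1, Cftr and Sned1, with log2 fold changes of 1.73 to 2.52, and the remaining largest decreases Krt80, Klk1b22, Fosb and Hoxb4, of -1.85 to -2.43.

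Each Tet1-/- clone was also set against the 3 WT clones in a fit with 1 coefficient per library, which assumes that a lone library varies like the other genotypes. This tests the library and not the genotype. Clone 2.1 had 0 calls in either direction, with 920 genes at an unadjusted p under 0.05 and a smallest adjusted p of 0.807, and DESeq2 called 1 gene higher and 0 lower. It lay outside the WT range for 49.5% of genes, and 380 genes (2.46%) were past 2-fold higher and 446 (2.89%) lower. Clone 2.2, outside the WT range for 47.8% of genes, had 0 higher and 2 lower calls (0.013%), with 895 genes at an unadjusted p under 0.05, where DESeq2 called 6 higher and 30 lower, and 288 (1.87%) past 2-fold higher and 653 (4.23%) lower. Clone 2.4 differed most, with 16 genes called higher (0.104%) and 7 lower (0.0454%), 822 (5.33%) past 2-fold higher and 1352 (8.76%) lower, and 66.6% of genes outside the WT range. DESeq2 called 213 higher and 438 lower in it, and edgeR on the 6 libraries alone 0 and 0.

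The calls in clone 2.4 depended on which WT clones were used. Without WT O4.2 there were 413 higher and 507 lower, and without WT O4.1 or WT O4.13 there were 0 in either direction. The higher calls included Dnmt3l and Tdrd1 above, and Nckap1l, a subunit of the actin-regulating WAVE complex of blood cells, at 26.2 CPM against 2.89 ± 0.101 CPM in WT (SD, n = 3). Mat2a, the enzyme that makes the methyl donor S-adenosylmethionine, was at 276 CPM against 114 ± 0.0659 CPM (SD, n = 3). Dusp6, a phosphatase that limits ERK signalling, was at 222 CPM against 109 ± 3.65 CPM (SD, n = 3). The germ cell factor Nanos3 was at 3.37 CPM against 0.433 ± 0.0971 CPM (SD, n = 3). The lower calls included the receptor Notch1, at 26.8 CPM against 87.3 ± 12.8 CPM (SD, n = 3), the RNA-binding heart factor Rbm24, at 1.33 against 9.28 ± 0.793 CPM (SD, n = 3), and the integrin-linked adaptor Parvb, at 16.1 against 42.6 ± 3.51 CPM (SD, n = 3). The genes with the highest fold changes in this clone, Dpp10 (1.20 CPM) and Cped1 (1.502 CPM), were at 0.0533 ± 0.0141 and 0.126 ± 0.0626 CPM in WT (SD, n = 3), near or under the limit of 3 counts, and the other named lower calls were Krt80 (0.0667 CPM) and Cmklr1 (1.03 CPM). In clones 2.1 and 2.2 the called genes were at other levels: Notch1 was at 48.6 and 94.8 CPM, Rbm24 at 3.75 and 18.3 CPM, and Nckap1l at 14.9 and 2.16 CPM.

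A pair of neighbouring glypican genes was almost without reads in clone 2.2. Glypicans are heparan sulfate proteoglycans of the cell surface that bind Wnt, hedgehog and BMP ligands. In clone 2.2 Gpc4 had 1 count (exact Poisson 95% interval 0.0253 to 5.57) and Gpc3 had 3 counts (0.619 to 8.77), where the other 11 D6 libraries had 761 to 2005 counts of Gpc4 and 2350 to 17825 of Gpc3. Intervals cover counting error only. Gpc4 was at 58.4, 0.0378 and 43.0 CPM against 74.2, 58.4 and 46.5 CPM in WT, and Gpc3 at 278, 0.113 and 136 against 632, 258 and 598 CPM. Clone 2.2 thus had 0.0634% of the WT mean of Gpc4 (0.0016% to 0.353%) and 0.0229% of that of Gpc3 (0.00472% to 0.0669%). The fit called Gpc4 lower in clone 2.2 (adjusted p = 0.000128), and gave Gpc3 an adjusted p of 0.105.

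The genes lie next to each other on the minus strand of the X chromosome in mm9, Gpc4 at chrX:49406198-49518429 and Gpc3 at chrX:49625603-49967127. Within 1000000 bases on either side 13 other genes were tested, and the 10 with a WT mean of at least 5 CPM had clone 2.2 log2 fold changes of -0.35 to 0.52. On either side Hs6st2 was at 18.96, 19.8 and 19.99 CPM against 16.9, 13.5 and 12.9 CPM and Phf6 at 60.8, 81.4 and 76.1 against 65.9, 72.8 and 56.0 CPM. Among genes at 2 CPM or more in all other D6 libraries, these were the only 2 that were over 8-fold below the lowest of them in clone 2.2, and no such gene was found in the other 5 libraries. The second call in clone 2.2 was Thbs1, a matrix thrombospondin, at 315, 81.5 and 173 CPM against 233, 227 and 207 CPM (log2 fold change -1.45 in clone 2.2, SE 0.135, adjusted p = 0.0139). Clone 2.2 has no D0 library, so neither value can be compared with its undifferentiated state.

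**Figure D4:**
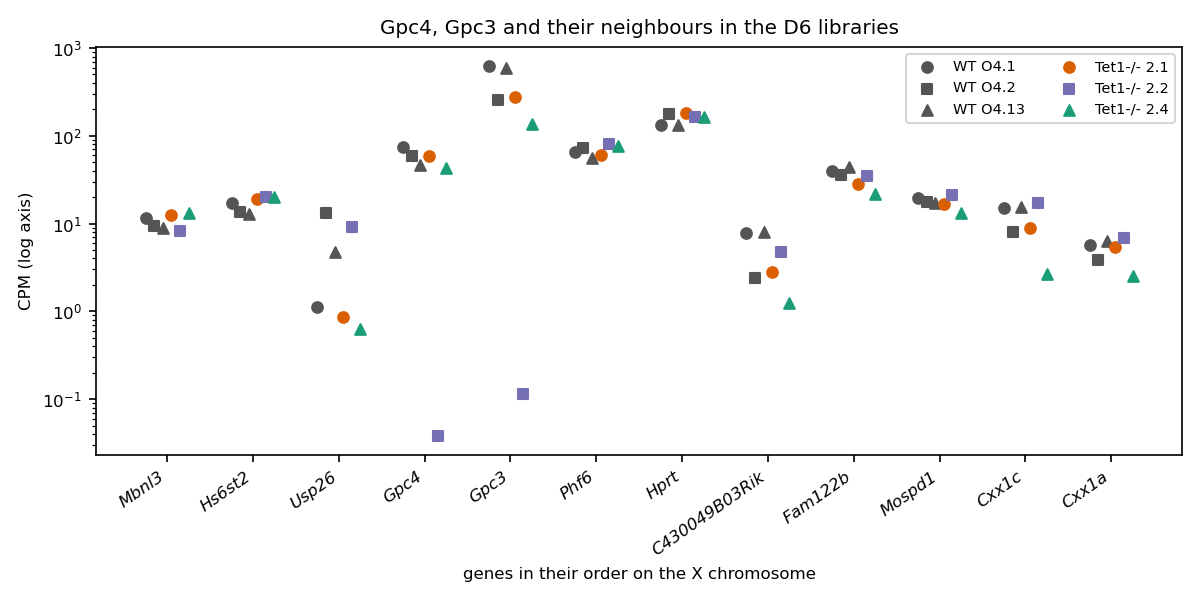
CPM on a log axis of Gpc4, Gpc3 and the neighbouring genes with a WT mean of at least 5 CPM, in their order on the X chromosome. Grey points are WT clones and coloured points Tet1-/- clones. Clone 2.2 is at 0.0378 and 0.113 CPM for Gpc4 and Gpc3 and close to the other clones for Hs6st2, Phf6 and Hprt, being the highest of the 6 for Phf6 (81.4 CPM).

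Whole chromosomes were not level between clones. The median log2 difference from WT over the genes of a chromosome was taken relative to all autosomes. In clone 2.4 the 647 genes of chromosome 8 with a mean of at least 1 CPM had a median of 0.31 (0.33 over genes of at least 10 CPM), and 0.29, 0.45 and 0.22 against each WT clone alone. Chromosome 11 in the same clone was at -0.19. Clone 2.2 was at 0.17 on chromosome 11, -0.13 on chromosome 6 and -0.11 on chromosome 8, and clone 2.1 at -0.14 on chromosome 6. WT clones set against the other WT clones ran from -0.23 (O4.1, chromosome 11) to 0.17 (O4.13, chromosome 6). Only the chromosome 8 value of clone 2.4 and, by a small margin, the chromosome 11 value of clone 2.2 lay outside that range. The references differ, since a Tet1-/- clone was set against the mean of all WT clones. Between single WT clones the shift reached 0.25 (O4.2 against O4.1, chromosome 11) and 0.22 (O4.13 against O4.2, chromosome 8). The 0.22 of clone 2.4 against O4.13 on chromosome 8 was within that reach, and its -0.29 against O4.2 on chromosome 11 was beyond it. Against each WT clone alone the chromosome 11 value of clone 2.2 was 0.33 (O4.1), 0.061 (O4.2) and 0.11 (O4.13). Of the 16 genes called higher in clone 2.4, 2 were on chromosome 8 (Nanos3 and Adad2) and 5 on chromosome 6, which held 4.74% and 4.28% of all tested genes. Cped1, also called higher, was not placed on a chromosome by the annotation used and is in neither count. Of the 731 tested genes of chromosome 8, 66 (9.03%) were past 2-fold higher in clone 2.4 and 29 (3.97%) lower. Over all genes these shares were 5.33% and 8.76%. On chromosome 11, with 1194 tested genes, 27 (2.26%) were past 2-fold higher and 166 (13.9%) lower in the same clone. In D0 cells clone 2.4 was at -0.02 on chromosome 8, and the D0 WT clones at 0.14, -0.17 and 0.03.

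**Figure D5:**
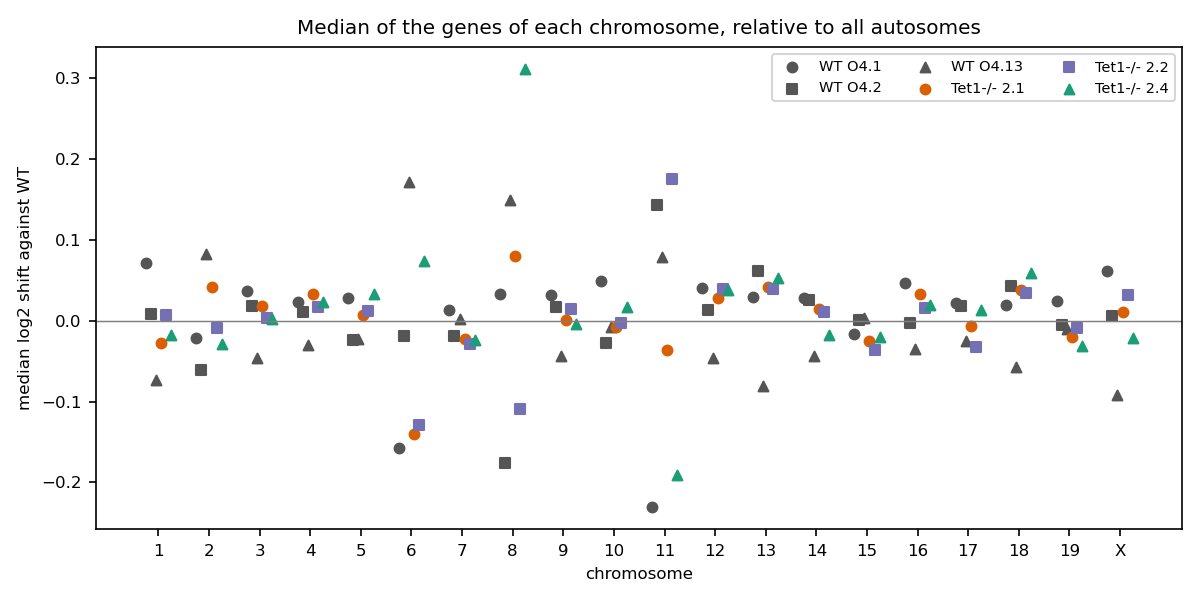
The y axis is the median log2 difference of the genes of a chromosome from WT, relative to all autosomes, and the x axis the chromosome. Each point is 1 library, and WT clones (grey) are set against the other WT clones. Clone 2.4 is at 0.31 on chromosome 8, whereas the other libraries lie between -0.23 and 0.17.

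Whether the genotype difference at D6 departed from that at D0 was tested in the 24 libraries as a day by genotype interaction. Of 15639 tested genes 0 were called in either direction in edgeR, with a smallest adjusted p of 0.131 and 1200 genes at an unadjusted p under 0.05, of which 191 and 187 were past 2-fold on the higher and lower side. For Slc2a1 the D0 log2 fold change was -0.48 (adjusted p = 0.363) beside -0.79 at D6, for Pim3 it was 0.01 beside -0.78, and for H19 -0.19 beside -2.29. For Egr1 it was 0.22 beside 1.17, for Nodal 0.22 beside 0.54 and for Hoxc4 -0.13 beside -2.11. Some other named genes had a D0 value of similar or larger size. Flrt2 was at 1.27 beside 1.55 and Shisa6 at 2.00 beside 1.59. Ndufa4l2 was at -2.64 beside -1.54 and Adm at -1.51 beside -1.15. The D0 adjusted p-values of these genes in edgeR ran from 0.143 to 0.595. Sall2 was the 1 list member called at D0, where it was higher by 1.40 on the log2 scale (SE 0.203, adjusted p = 0.00557), with means of 25.2 CPM in Tet1-/- and 9.56 CPM in WT cells. The D0 Tet1-/- clones were 2.1, 2.3 and 2.4, so only 2 of the 3 clones are shared between the days.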

How the data were processed

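RNA-seq counts of 24 libraries were analysed, 6 of which, at D6, make up the comparison. Per the labels and the study's methods, poly(A) RNA with ERCC spike-ins was made into NEBNext Ultra libraries, sequenced paired-end and aligned with STAR 2.5.1 to mm9. The deposited values are raw read counts, 1 row per transcript. The submitters' processing notes also name DESeq2. The counting program is named differently in different places of the supplement, and strand handling is not given in the sources used here. Each day's table holds 31928 rows for 22926 symbols. The first row of each symbol was used (4911 symbols have several), and 0 rows were ERCC controls, so spike-in scaling was not possible and total RNA per cell is not seen.

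Low counts were removed with filterByExpr (minimum count 10), and 15435 genes were tested with edgeR 4.0.16 (quasi-likelihood, TMM, factors 0.99 to 1.03 in the 6 libraries) in R 4.3.3, on all 12 D6 libraries with 1 coefficient per genotype. Adjusted p-values are Benjamini-Hochberg over all tested genes, and a call needs an adjusted p under 0.05 and over 2-fold. The same counts were fitted with 1 coefficient per Tet1-/- library, with a day by genotype interaction over 24 libraries, and with DESeq2 1.42.0 and limma 3.58.1 as alternatives. Counts, means and figures were made in Python 3.11.15 with pandas 2.3.3 and scipy 1.17.1. Errors are SD of 3 clones or SE of the fit. On simulated counts with 200 genes changed by 2 on the log2 scale the D6 comparison recovered 95% with 9 false calls, and DESeq2 98.5% with 21. The changed genes all had a WT mean over 1 CPM, and each gene was drawn independently at its fitted spread. Shifts shared by many genes of a clone, as in WT O4.2, were not simulated. The recovery therefore does not give the power of the test in these data. The members and the gene lists were chosen with earlier results of these data known. Named genes were Tet1 to Tet3, list members whose groups do not overlap or that mark a list, the 10 highest and 10 lowest log2 fold changes among non-overlapping genes with an unadjusted p under 0.05 and a mean of at least 1 CPM, the 5 smallest p-values per direction among DESeq2 calls, the 5 highest and lowest calls per clone, and some named after their values were seen. No pair of libraries agreed within sampling noise, so each counted as 1 sample. The scan for genes nearly without reads in 1 library and the D0 chromosome values were added after seeing the data.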

Additional observations from a re-analysis of the deposited data

How the results depend on the processing

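The counts of genes called between Tet1-/- and WT clones stayed at 0 under other scalings, without the filter, with the rows of a symbol summed, on the 6 libraries alone, with the replicate block and without any single library. They changed with the test: DESeq2 gave 28 higher and 18 lower on 12 libraries and 13 and 13 on 6, and limma voom with a weight per library gave 94 and 84. The voom weights were 2.16 for clone 2.1 and 2.14 for WT O4.13, and 0.358 for WT O4.2.

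The number past 2-fold at an unadjusted p under 0.05 was 235 higher and 162 lower. It was 403 and 325 with voom, and 144 higher with the 6 libraries alone. Leaving out single libraries gave 87 to 438 higher and 92 to 380 lower, with 405 and 380 without clone 2.2, 87 and 92 without clone 2.4 and 438 and 253 without WT O4.2. With the replicate block (6 libraries) it was 121 higher, with 0 calls and a smallest adjusted p of 0.693. The replicate numbers do not pair the clones: same-numbered libraries had correlations of deviations of -0.125, 0.157 and -0.327, and not every library correlated best with its own number.

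For clone 2.1, 1 gene was called higher by DESeq2 and 2 without WT O4.2. For clone 2.2, DESeq2 called 6 higher and 30 lower, summed rows gave 1 higher, the 6 libraries alone gave 1 lower, and leaving out WT clones gave 1 to 2 lower (1 without WT O4.1). For clone 2.4, DESeq2 called 213 higher and 438 lower, the 6 libraries alone 0 and 0, and leaving out WT clones gave 0 to 413 higher and 0 to 507 lower. The interaction gave 0 to 7 lower calls when single D6 libraries were left out, 1 without clone 2.2 and 7 without WT O4.2. The cause was not tested.

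The log2 fold change of Tet2 ran from -0.14 to 0.066 when single libraries were left out and reversed sign to 0.066 without WT O4.2. It was the 1 sign change among 600 values of 86 named genes under 7 alternatives, but apart from the 3 Tet genes these were genes whose groups do not overlap, which fixes most signs and says nothing about stability. Medians of 18 of the 26 lists kept their sign under every alternative run, and those of 24 moved by over 1.5 times or changed sign when 1 library was left out, all but the Hox and trophectoderm lists. A gene that missed the threshold is not shown to be equal in the genotypes, and genes near 1 CPM rest on few counts.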

Other observations

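Counted as genes past 2-fold between single libraries on the log2(CPM + 1) scale, the genotypes were not the main divide. WT O4.1 and WT O4.13 differed in 64 genes (0.415%), and they differed from WT O4.2 in 4.92% and 3.32% of genes. Clone 2.2 and WT O4.13 differed in 176 genes, fewer than clones 2.2 and 2.1 (356) or clones 2.2 and 2.4 (962). Clone 2.4 differed from WT O4.1, O4.2 and O4.13 in 1275, 704 and 1238 genes, and clone 2.1 from WT in 278 to 334. The median coefficient of variation of a gene over 3 clones was 16.3% in Tet1-/- and 14.5% in WT.

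The 2-cell-like genes, which mark the rare ESC state resembling the 2-cell embryo, had the highest list median, 1.16 over 9 tested members of 17, with clone medians of 1.44, -0.12 and 1.96. It moved to 0.67 without clone 2.4, 0.72 without WT O4.13 and 1.79 without WT O4.1. Of these members, 2 were non-overlapping and above WT (22.2%, beside 8.33% of all genes), Tcstv3 and Usp17la. Most members had a few counts per library, so no fold is given for them. Fxyd4, an ion pump regulator gene, was the 1 gene over 8-fold above all other D6 libraries in clone 2.4 by the reverse of the rule used for Gpc3 and Gpc4, and no other of the 6 libraries had such a gene.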
